A study of Mus musculus with 46 samples.

Results

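Type I interferon-stimulated genes were measured in AB1-HA tumors, a murine mesothelioma line carrying influenza hemagglutinin and grown under the skin of BALB/c mice. The 40 genes were taken from a list of symbols, and all 40 were found among the 46011 complete gene entries of the count table. All 40 also had enough counts to be tested in every comparison. RNA of 46 tumors was sequenced in bulk. The male mice were 8 to 10 weeks old and carried a tumor on each flank, of which a single tumor was resected for sequencing while the other tumor showed the response to cyclophosphamide (CY, 200 mg/kg on day 10 after inoculation). Complete responders (CR) lost the remaining tumor. The other mice (PR) are partial responders in the sample labels and progressors in the study. On Day-1, the day before CY (day 9 after inoculation), 13 CR and 13 PR tumors were taken. On Day+3 (day 13) and Day+7 (day 17), 5 CR and 5 PR tumors each were taken from other mice. Every mouse received CY, so there was no tumor of the same age without it, and time after CY and tumor age cannot be told apart. All tumors came from the same cell line, and the response was read from a tumor that was not sequenced.

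Type I interferons are cytokines made when a cell senses foreign or misplaced nucleic acid. They bind the receptor IFNAR, a pair of Ifnar1 and Ifnar2 chains, and the kinases JAK1 and TYK2 pass the signal on. The transcription factor complex ISGF3, which holds IRF9, then binds the interferon-stimulated response element in the promoters of a large set of genes. The products block viral RNA, sense it, or amplify the signal, and in tumors the same genes are read as a mark of interferon exposure of cancer, stromal and immune cells. Many of them also answer to interferon gamma. The 40 genes cover the IFIT proteins (Ifit1, Ifit1bl1, Ifit2, Ifit3, Ifit3b), which bind viral RNA; the ubiquitin-like Isg15 and its ligase Herc6; the transcription factors Irf7 and Irf9; the MX GTPases Mx1 and Mx2; and 7 members of the OAS family (Oas1a, Oas1b, Oas1g, Oas2, Oas3, Oasl1, Oasl2), most of which make or resemble enzymes that make the activator of RNase L. They also cover the RNA helicases Ifih1 (MDA5), Ddx58 (RIG-I), Dhx58 (LGP2) and Ddx60, the double-stranded RNA kinase Eif2ak2 (PKR) and editor Adar, the HIN200 genes Ifi203 and Ifi204, the E3 ligase Dtx3l with Parp9, Parp10, Parp12 and Parp14, and 9 other effectors (Bst2, Cmpk2, Isg20, Helz2, Ifi27, Ifi35, Ifi44, Epsti1, Lgals3bp). In BALB/c mice, as in most laboratory strains, Mx1 and Oas1b are known to encode defective proteins. The gene annotation used here types Mx2, like Oas1b, as a polymorphic pseudogene.

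The core of the interferon-stimulated response element is a pair of GAAA blocks with 2 bases between them. RefSeq promoter windows on GRCm38.p6, from 250 bases before to 50 bases after a gene's start, were held for 30 of the 40 genes and were searched for GAAA, any 2 bases, then GAAA on either strand. At least 1 match was found in 14 of these 30 genes (46.7%), and in 1079 of 27025 genes with a window (3.99%). Stretches from 6 of the windows are printed because these genes included those with the largest changes and those with several matches. Letters are in capitals where a match covers them, and each stretch is read 5′ to 3′ on the strand of its gene. Isg15 lies in chr4:156200769-156201068 (minus strand), Bst2 in chr8:71537423-71537722 (minus), Ifit1 in chr19:34640639-34640938 (plus), Ifit3 in chr19:34583279-34583578 (plus), Oas1a in chr5:120907476-120907775 (minus) and Ddx60 in chr8:61927837-61928136 (plus).
Isg15: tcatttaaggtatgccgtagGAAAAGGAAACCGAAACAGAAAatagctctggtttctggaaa
Bst2: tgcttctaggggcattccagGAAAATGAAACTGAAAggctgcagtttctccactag
Oas1a: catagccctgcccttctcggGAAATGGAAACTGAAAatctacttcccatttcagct
Ddx60: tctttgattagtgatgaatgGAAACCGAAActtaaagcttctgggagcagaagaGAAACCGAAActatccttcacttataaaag
Ifit1: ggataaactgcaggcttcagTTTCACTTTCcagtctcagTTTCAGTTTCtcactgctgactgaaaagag
Ifit3: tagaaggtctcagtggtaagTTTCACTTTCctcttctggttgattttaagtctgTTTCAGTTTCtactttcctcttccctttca

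In Isg15 the 3 matches overlapped, and in Bst2 and Oas1a 2 matches overlapped. Ddx60, Ifit1 and Ifit3 held 2 separate matches each, and the stretch of Ifit3b (chr19:34607707-34608006) was letter for letter that of Ifit3. By role, a match was found in 4 of 5 IFIT genes, 3 of 5 OAS genes and 3 of 3 RNA helicases with a window, but in 0 of 2 interferon regulatory factors and 1 of 8 other effectors. A match is only a run of letters, and no binding was measured in these tumors.

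The counts of a tumor over the genes of the table summed to between 10200000 and 14200000 on Day-1, 15400000 and 18700000 on Day+3, and 16000000 and 19400000 on Day+7, so the Day-1 tumors were sequenced less deeply than all later ones. The depth difference goes with time after CY and cannot be told apart from it. Values are given as CPM, counts divided by a library size that the TMM method had scaled. Each tumor is from a different mouse, and each test set a group difference against the spread between tumors. More than 10 CPM of the keratin gene Krt5, a skin marker, was found in 16 tumors (10 on Day-1, 1 on Day+3, 5 on Day+7), and calls that changed without them are named. In bulk RNA, fewer cells of a type and less RNA per cell cannot be told apart. Of the mesothelium markers, Msln averaged 385 CPM on Day-1, while Calb2, Krt18, Krt19, Lrrn4 and Gpm6a averaged under 1 CPM on each day.

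Type I interferon-stimulated genes were low before CY, a little higher on Day+3 and high on Day+7. The mean log2 CPM of the 40 genes was 5.84 ± 0.37 on Day-1 (SD, n = 26), 6.17 ± 0.12 on Day+3 (n = 10) and 7.52 ± 0.30 on Day+7 (n = 10). The lowest Day+7 tumor stood at 7.15 and the highest Day-1 tumor at 6.65, so these days did not overlap. Day+3 tumors lay between 5.89 and 6.34, inside the Day-1 range of 5.21 to 6.65. Summed over the 40 genes, the level was 2340 to 5840 CPM on Day-1, 3440 to 4550 CPM on Day+3 and 8480 to 15700 CPM on Day+7.

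**Figure D1:**
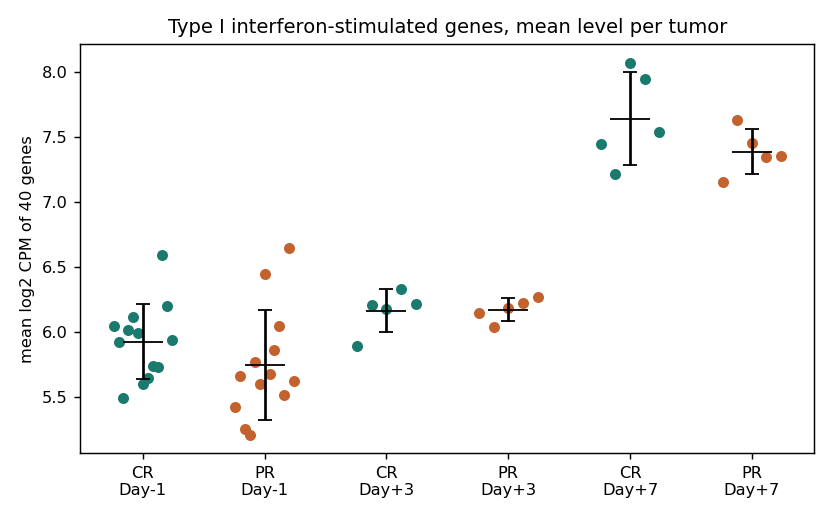
Mean log2 CPM of the 40 genes (y axis) in each of the 46 tumors, by response and day (x axis). Points are tumors, the long line is the group mean and the bars are 1 SD. All 10 Day+7 tumors (7.15 to 8.07) sit above all 26 Day-1 tumors (5.21 to 6.65), and the Day+3 tumors lie closest together.

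Before CY, the genes moved together from tumor to tumor. For each gene, its rank correlation with the mean of the other 39 genes over the 26 Day-1 tumors was computed as a description. The tumors share no library, but a tumor's depth and cell content enter both sides. The median correlation was 0.92, and 38 of the 40 genes were at 0.8 or more. Epsti1, a gene of unsettled function, was at 0.79, and Ifi27, a small mitochondrial and nuclear membrane protein, was at -0.08. The median correlation was 0.68 over the 10 Day+3 tumors and 0.91 over the 10 Day+7 tumors, so it was not particular to Day-1. Other genes were not correlated in this way. In 8 Day-1 tumors (6 CR and 2 PR) at least 38 of the 40 genes were above their Day-1 median, and in 5 tumors (1 CR and 4 PR) at least 38 were below it. The highest tumors were PR Day-1 replicate 12, CR Day-1 replicate 11 and PR Day-1 replicate 7. Oas3, an OAS enzyme, ranged from 15.5 to 100 CPM on Day-1, whereas Ifi27 stayed between 66.1 and 90.7 CPM.

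Before CY the 40 genes covered a wide span of read levels. Lgals3bp, a secreted glycoprotein, averaged 328 ± 72.8 CPM (SD, n = 26), Ifi203 averaged 252 CPM and Oasl2, an OAS-like protein that binds RNA, 208 CPM. At the other end Mx2 averaged 13 CPM and Ifit1bl1 2.21 CPM. CPM is not scaled to transcript length, so these levels do not rank transcripts by number. Beside Ifi27, the steadiest genes between Day-1 tumors were Adar, Eif2ak2 and Helz2, with coefficients of variation of 12.5%, 16.1% and 17.4%. The most variable were Oas3 (48.6%), Ifi44 (48.1%), Oasl2 (43.4%) and Ifit3 (41.1%). Adar, the editor of double-stranded RNA, thus stayed between 131 and 223 CPM while Ifi44 spanned 55.3 to 280 CPM in the same tumors.

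The spread between tumors was smallest on Day+3. The coefficient of variation of a gene had a median over the 40 genes of 31.2% on Day-1, 10.7% on Day+3 and 22.9% on Day+7. It was lower on Day+3 than on Day-1 for 40 of 40 genes, and lower on Day+7 than on Day-1 for 27. The number of tumors differs between the days, and no test was made of this. The coefficient of variation was not computed for other genes, so a smaller spread on Day+3 is not shown to be particular to these genes. The 40 genes move together, so they are not 40 separate results.

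The first comparison with untreated tumors asked what had changed 3 days after CY. On Day+3, 21 of the 40 genes were higher than on Day-1, 5 were lower and 14 did not pass the test (edgeR's quasi-likelihood test over 13194 genes, Benjamini-Hochberg FDR under 0.1). Of all genes tested, 37.9% were higher and 39.6% lower. The median log2 fold change of the 40 genes was 0.24 (1.18-fold), against -0.02 over all genes tested. The values ran from -0.45 to 1.70, and 25 of the 40 were above 0.

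Ifi27 changed most on Day+3. It was at 264, 255, 253, 251 and 255 CPM in CR and 271, 247, 254, 237 and 262 CPM in PR tumors on Day+3, against a lowest, median and highest CR value of 66.1, 80.1 and 90.7 CPM on Day-1 and the corresponding PR values of 67.5, 79.2 and 86.4 CPM. No Day+3 tumor came near the Day-1 range (log2 fold change 1.70, SE 0.06, 3.26-fold, adjusted p = 9.74e-27). Isg15, which is conjugated to other proteins much as ubiquitin is, was at 61, 76.2, 72.9, 77.7 and 67.8 CPM in CR and 76.2, 73.8, 84, 73 and 75.4 CPM in PR tumors on Day+3, against 20.7, 27.2 and 52.2 CPM (lowest, median, highest) in CR and 15.8, 25 and 53.1 CPM in PR tumors on Day-1. Its groups did not overlap either (log2 fold change 1.38, SE 0.14, 2.60-fold, adjusted p = 1.01e-11). Bst2 (tetherin), which holds budding virus at the cell surface, was at 181 to 254 CPM on Day+3 and 70.1 to 171 CPM on Day-1 (log2 fold change 0.98). Parp10, a mono-ADP-ribosyltransferase, was at 129 to 157 CPM on Day+3 and 50.1 to 106 CPM on Day-1 (log2 fold change 1.06). Of the 40 genes, these 4 were those for which every Day+3 tumor was above every Day-1 tumor, which held for 12.2% of all genes tested.

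By role, both MX GTPases (Mx1 log2 fold change 1.09, Mx2 0.76), both interferon regulatory factors (Irf7 0.38, Irf9 0.16) and 5 of the 7 OAS genes (Oas1a 0.47, Oas1b 0.44) were higher on Day+3. Of the IFIT genes, Ifit3 (0.90) and Ifit3b (0.93) were higher, while Ifit1 was at 0.25 (adjusted p = 0.118), Ifit2 at 0.11 and Ifit1bl1 at 0.02. The helicases Dhx58 (0.53) and Ddx60 (0.62) were higher, and the sensors Ifih1 (-0.14) and Ddx58 (-0.17) did not pass. Nor did Eif2ak2 (-0.12), Adar (-0.09), Ifi203 (-0.08), Ifi204 (-0.07), Herc6 (-0.23), Parp9 (-0.02), Parp14 (-0.18), Oas3 (-0.30) or Oasl2 (0.11). Cmpk2, Ifi35, Epsti1 and Lgals3bp were higher by 0.42, 0.65, 0.22 and 0.27.

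The 5 genes that were lower on Day+3 were the helicase co-activator Helz2 (log2 fold change -0.45, adjusted p = 2.43e-05), the RNA exonuclease Isg20 (-0.43), Dtx3l (-0.41), Ifi44 (-0.40) and Parp12 (-0.37). Dtx3l was at 62, 92.8, 91.4, 109 and 94.6 CPM in CR and 75.3, 76.2, 86.2, 90.7 and 99.9 CPM in PR tumors on Day+3. On Day-1 it was at 83.7, 126 and 215 CPM (lowest, median, highest) in CR and 71, 93.3 and 205 CPM in PR tumors, so the days overlapped. Without the 16 tumors high in Krt5, 24 genes were higher and 2 were lower, Helz2 and Isg20, and the median of the 40 genes was 0.41. The shares of all genes in that setting are not given here, so these counts do not show a shift particular to the 40 genes. Dtx3l was then at -0.25 (adjusted p = 0.12), Parp12 at -0.14 (adjusted p = 0.241) and Ifi44 at -0.16 (adjusted p = 0.462), and Ifit1, Ifit2 and Oasl2 gained a call. Ifi44 was close to the threshold (adjusted p = 0.0581) and lost its call when either of 2 single tumors was left out and in 7 of 12 other settings, and Epsti1 (adjusted p = 0.0793) lost its call when any of 16 was left out.

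**Figure D2:**
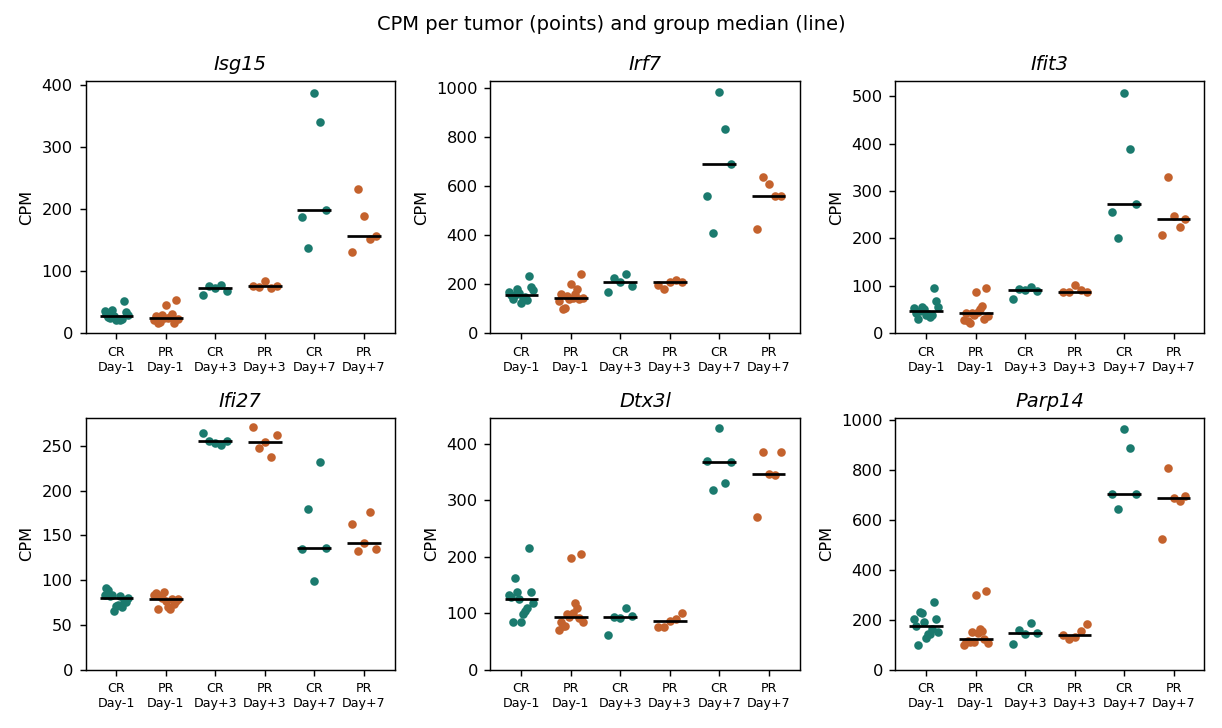
CPM (y axis, linear) of Isg15, Irf7, Ifit3, Ifi27, Dtx3l and Parp14 in each tumor, by response and day (x axis); points are tumors and lines are group medians. Ifi27 peaks on Day+3 (237 to 271 CPM), Isg15 and Ifit3 climb on both days, and Dtx3l and Parp14 are high on Day+7 alone.

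The Day+3 changes went with transcript length. Over the 40 genes, the rank correlation of the log2 fold change on Day+3 with transcript length was -0.54, against -0.23 over the 12957 genes with a length. These are descriptions across genes, which share the same libraries. Of the 11 genes of up to 2000 bases, 10 were higher and 1 was lower (Isg20). Of the 9 genes of over 4000 bases, 1 was higher (Ddx60) and 2 were lower (Dtx3l and Helz2). Over all genes tested, 48.9% of those of up to 2000 bases were higher and 28.4% lower, and 22.6% of those of over 4000 bases were higher and 58.3% lower. With an offset for length fitted in each tumor, 21 of the 40 genes were called higher and 3 lower, and 23 of the 26 calls were kept. The lost calls were those of Epsti1, Dtx3l (-0.18, adjusted p = 0.216) and Helz2, the longest at 10109 bases, which was at 0.0041 on the log2 scale. Adar, which had a negative change without the offset, gained a call as higher. With offsets for length and GC content together, 20 were called higher and 3 lower, and 18 calls were kept. Helz2 was then called lower again (-0.19, adjusted p = 0.0471). Irf7 (0.17), Irf9 (0.10), Lgals3bp (0.07), Oas1g, Oasl1, Epsti1, Dtx3l (-0.12) and Ifi44 (-0.17, adjusted p = 0.418) lost their calls. Ifit1, Ifit2, Ifih1, Eif2ak2 and Ifi203 gained a call as higher, although Ifih1, Eif2ak2 and Ifi203 had a negative change without an offset. The shares of all genes called with these offsets are not given here, and the part of length in the result was not tested further. For Day+7 against Day-1 the correlation was -0.37 over the 40 genes, and it was 0.02 for Day+7 against Day+3.

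**Figure D3:**
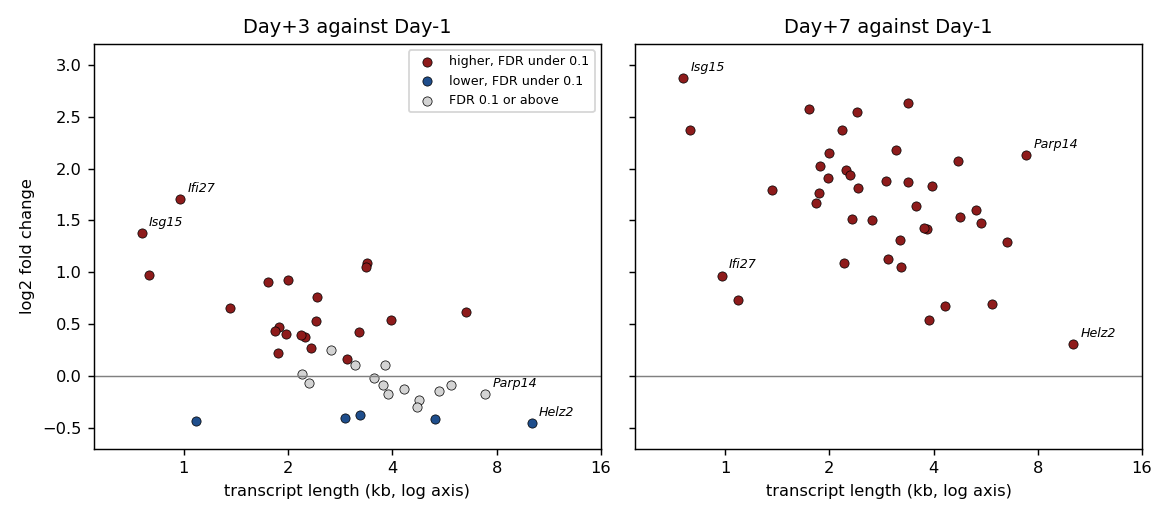
Log2 fold change (y axis) of the 40 genes against transcript length in kilobases (x axis, log scale), for Day+3 (left) and Day+7 (right) over Day-1. On Day+3 the red points (higher) lie mostly on the left, 10 of the 11 genes of up to 2000 bases, while Helz2 at 10109 bases is lowest. On Day+7 all 40 points are red.

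The second comparison asked the same 7 days after CY. On Day+7, 40 of the 40 genes were higher than on Day-1, and 0 were lower, while of all genes tested 43% were higher and 42.8% lower (edgeR, FDR under 0.1). The median log2 fold change was 1.71 (3.28-fold) and the smallest was 0.31 (Helz2, adjusted p = 0.00124). Every Day+7 tumor was above every Day-1 tumor for 31 of the 40 genes, which held for 19.8% of all genes tested. The 9 others were Ifit1bl1, Oas3, Ddx58, Eif2ak2, Parp12, Cmpk2, Isg20, Helz2 and Ifi44.

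Isg15 had the largest change, at 188, 138, 388, 341 and 199 CPM in CR and 130, 232, 189, 152 and 157 CPM in PR tumors on Day+7 (log2 fold change 2.87, SE 0.14, 7.31-fold, adjusted p = 2.79e-23). CR replicates 3 and 4 were the highest, and the lowest PR tumor was still above the highest Day-1 value of 53.1 CPM. Irf7, the transcription factor that amplifies interferon production, was at 559, 409, 986, 833 and 691 CPM in CR and 426, 639, 609, 561 and 561 CPM in PR tumors on Day+7, against 123, 157 and 233 CPM (lowest, median, highest) in CR and 100, 145 and 242 CPM in PR tumors on Day-1. All Day+7 tumors were above all Day-1 tumors (log2 fold change 1.99, 3.96-fold). Ifit3 averaged 287 ± 96.3 CPM on Day+7 and 47.8 ± 19.6 CPM on Day-1 (SD, n = 10 and 26, log2 fold change 2.58). It shares 61.8% of its 31-base words with Ifit3b, so the split of reads between this pair is uncertain, as it is for Oas1a and Oas1g (68.7% of the words of Oas1a). Parp14, an ADP-ribosyltransferase, averaged 730 ± 127 CPM on Day+7 and 167 ± 60.5 CPM on Day-1 (log2 fold change 2.13). Parp9 and Dtx3l overlap on opposite strands, and whether the counting used strand is not given in the sources used here.

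Mx1 was at 130, 133, 261, 240 and 147 CPM in CR tumors and at 118, 155, 165, 116 and 116 CPM in PR tumors on Day+7, against 13.4 to 49 CPM over all 26 Day-1 tumors (log2 fold change 2.63, 6.21-fold). The groups were far apart, and the same 2 CR tumors were highest as for Isg15. Lgals3bp was at 970, 768, 1190, 845 and 925 CPM in CR tumors and at 842, 970, 1030, 895 and 885 CPM in PR tumors on Day+7, against 200 to 493 CPM on Day-1 (log2 fold change 1.51). Here CR replicate 3 was highest too, but CR replicate 4 was among the lower tumors. Oas3 was at 150, 108, 260, 211 and 191 CPM in CR tumors and at 98.8, 192, 158, 141 and 154 CPM in PR tumors on Day+7. PR Day-1 replicate 12 reached 100 CPM, above the lowest Day+7 tumor, although the log2 fold change of Oas3 was 2.07. Helz2 averaged 174 ± 44.9 CPM on Day+7 and 139 ± 24.3 CPM on Day-1, with ranges of 124 to 252 CPM and 108 to 214 CPM that overlapped widely.

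By role, the median log2 fold change on Day+7 was 2.22 for the MX genes (Mx1 2.63), 2.20 for Isg15 and Herc6, 2.02 for the OAS family (Oasl1 2.37, Oas1a 2.02, Oas1b 1.67) and 1.68 for the HIN200 genes (Ifi204 1.94). It was 1.64 for the PARP and DTX3L group, 1.56 for the regulatory factors (Irf9, the DNA-binding subunit of ISGF3, 1.13), 1.51 for the IFIT genes (Ifit1 1.51) and 1.51 for the other effectors (Bst2 2.37, Lgals3bp 1.51, Ifi27 0.97). The helicases ranged widely: Dhx58 was at 2.54, Ifih1 at 1.48, Ddx60 at 1.29 and Ddx58 at 0.54. Eif2ak2 (0.68) and Adar (0.69), which are expressed without interferon in most cells, were among the smallest. Adar averaged 266 ± 28.9 CPM on Day+7 and 165 ± 20.6 CPM on Day-1. The 14 genes with a promoter match had a median of 1.71 and the 16 with a window but no match 1.52, and on Day+3 the medians were 0.33 and 0.11. Of the 5 genes that were lower on Day+3, 0 had a match, while 7 of the 14 higher genes and 7 of the 11 genes not called with a window did.

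**Figure D4:**
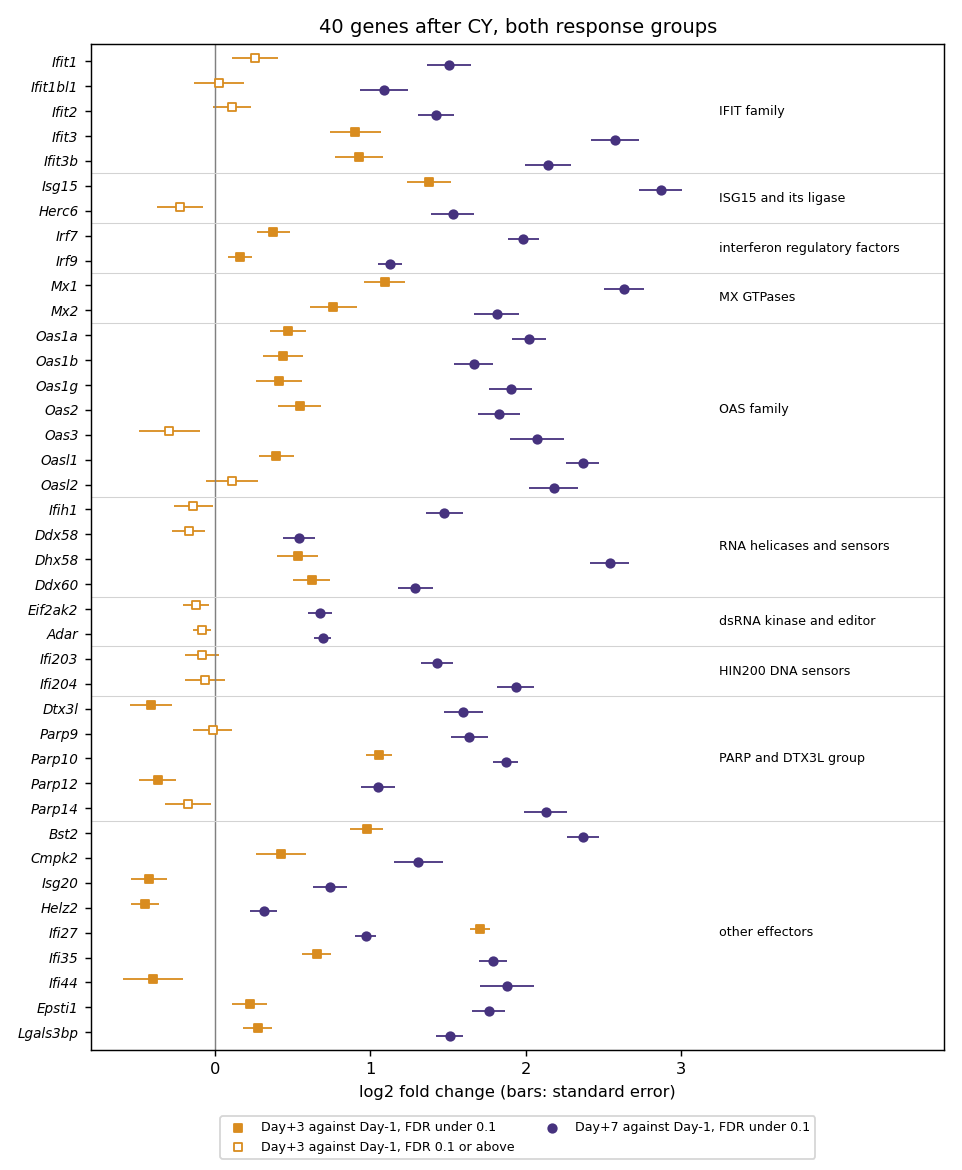
Log2 fold change over Day-1 (x axis) of each of the 40 genes, grouped by role (y axis), on Day+3 (orange squares, open where FDR was 0.1 or above) and Day+7 (purple circles); bars are standard errors. All 40 circles are right of 0, while the squares spread from -0.45 (Helz2) to 1.70 (Ifi27). Both days share the Day-1 tumors.

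Between Day+7 and Day+3, 39 genes were higher on Day+7 and 1 was lower, with a median log2 fold change of 1.41 (2.66-fold). Of all genes tested, 38.8% were higher and 36.5% lower, and with the table sums as library sizes this split was 26.6% and 52.3%, the median of all genes moved to -0.26 and the median of the 40 genes to 1.12. Every Day+7 tumor was above every Day+3 tumor for 37 genes, which held for 19.2% of all genes tested. Parp14 was at 704, 643, 966, 890 and 704 CPM in CR and 522, 809, 687, 677 and 697 CPM in PR tumors on Day+7, against 105, 158, 143, 187 and 146 CPM in CR and 140, 123, 132, 157 and 182 CPM in PR tumors on Day+3 (log2 fold change 2.31). Oas3 (2.37) and Ifi44 (2.28), which had not been higher on Day+3, changed as much, and Oasl2 (2.07), Dtx3l (2.01) and Dhx58 (2.01) followed, ahead of Ifi204 and Oasl1 (1.97). Ifi27 went the other way. It was at 135, 179, 99.5, 232 and 136 CPM in CR and 163, 133, 141, 176 and 135 CPM in PR tumors on Day+7, below all Day+3 values (log2 fold change -0.74, SE 0.08, adjusted p = 5.51e-11). On Day+7 it was still above every Day-1 tumor.

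The genes that make and pass on the signal were also read. The 18 type I interferon genes of the table (Ifnb1, the Ifna genes, Ifnab, Ifne, Ifnk and Ifnz) were too low to be tested, and 7 had no count in any tumor. Together they had 36 counts over the 26 Day-1 tumors, 80 over the 10 Day+3 tumors and 18 over the 10 Day+7 tumors. Ifnb1, interferon beta, had a count in 6 of 26, 8 of 10 and 4 of 10 tumors. At a highest count of 8 in a tumor these genes were below the filter of the test, and the difference in counts between the days, which also differ in depth, was not tested. The receptor chain Ifnar2 was higher on Day+3 (log2 fold change 0.43) and on Day+7 (1.49), Ifnar1 was at 0.00 and was higher at 0.73, and the kinase Jak1 was lower on Day+3 (-0.36) and higher on Day+7 (0.08). With the table sums as library sizes the median of all genes on Day+7 moved to -0.17, a larger shift than the change of Jak1. Of all genes tested, 37.9% were higher and 39.6% lower on Day+3, and 43% and 42.8% on Day+7. Of 11 genes of the signalling that induces interferon, 6 were higher and 3 lower on Day+3, and 8 were higher and 1 lower on Day+7. Irf5 (3.03), the kinase Ikbke (2.24) and the adaptor Myd88 (1.86) changed most on Day+7. Irf3, the transcription factor that starts interferon beta expression, was higher on both days (0.31 and 0.32), and the adaptor Mavs was higher on Day+3 (0.22) and at 0.00 on Day+7. The DNA sensor Cgas was lower on Day+3 (-0.65).

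Of a further list of 27 genes that type I interferon induces, 9 were higher on Day+3 and 6 lower with a median log2 fold change of -0.10, and on Day+7, 26 were higher and 1 lower with a median of 1.78. Ifi27l2a, a relative of Ifi27, was at 1.85 on Day+3 and 2.63 on Day+7. Ifi44l (3.38) and Cd274 (3.96), which encodes PD-L1, changed most on Day+7, and Apobec3, an antiviral deaminase, was lower (-0.13). Of 17 genes of the interferon gamma axis, 3 were higher and 9 lower on Day+3 (median -0.60, Ciita -1.48), and 17 were higher on Day+7 (median 3.18). Beside both lists, the shares over all genes tested were 37.9% higher and 39.6% lower on Day+3, and 43% and 42.8% on Day+7. Ifng itself averaged 1.19 ± 1.20 CPM on Day-1, 0.914 ± 0.423 CPM on Day+3 and 44.3 ± 15.2 CPM on Day+7, and Irf1, a transcription factor that interferon gamma induces, averaged 240 ± 102, 244 ± 54.8 and 1800 ± 257 CPM. The part of interferon gamma in the Day+7 levels of the 40 genes was not tested.

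Cell type markers also changed between these days, in differing directions. Of all genes tested, 37.9% were higher on Day+3 and 43% on Day+7 than on Day-1. The summed level of 10 leukocyte markers was 834 to 1660 CPM on Day-1, 1320 to 1890 CPM on Day+3 and 3780 to 6960 CPM on Day+7, where 10 of 10 were higher than on Day-1. The 11 macrophage markers summed to 2720 to 7000, 10100 to 14100 and 15600 to 24100 CPM, and 11 of 11 were higher on both days. The 6 markers of plasmacytoid dendritic cells, which are known for making type I interferon, summed to 8.44 to 44.2, 11.2 to 33.7 and 84.2 to 131 CPM, with 0 higher on Day+3 and 6 on Day+7. For 8 T cell markers the sums were 35.3 to 188, 37.8 to 97.6 and 137 to 720 CPM, with 0 higher on Day+3 and 8 on Day+7. The mesothelium markers fell to Day+7, at 288 to 611, 301 to 492 and 52.2 to 133 CPM. Msln held most of that sum and averaged 385 CPM on Day-1, 353 CPM on Day+3 and 65.9 CPM on Day+7. In the same order of days, neutrophil markers averaged 842, 2161 and 734.1 CPM in sum. B cell markers averaged 16.12, 21.81 and 11.17 CPM, and fibroblast markers 24330, 30340 and 15320 CPM. Monocyte markers averaged 481.7, 421.1 and 1891 CPM, and conventional dendritic cell markers 75.83, 75.1 and 1123 CPM. The part of these cell types in the changes of the 40 genes was not tested.

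CR was compared with PR within each time point, and for the 40 genes no difference passed the edgeR test. On Day-1, 0 of 40 were called (edgeR over 10777 genes, FDR under 0.1), and 0.00928% of all genes tested were. At an unadjusted p under 0.05 were 0 of the 40 and 1885 of the 10777 genes tested (edgeR). DESeq2 and limma-voom also called 0 of the 40. By voom 11 of the 40 were at an unadjusted p under 0.05. That count was not taken over all genes by voom, so the 11 cannot be set against a share. The values leaned towards CR: 36 of 40 log2 fold changes were above 0, with a median of 0.15 (1.11-fold). Over all genes tested the median was -0.01, and 5096 of 10777 were above 0. The galectin-binding Lgals3bp had the smallest p, with an average of 352 ± 57.3 CPM over CR tumors and 304 ± 80.7 CPM over PR tumors (SD, n = 13 each, log2 fold change 0.21, SE 0.11, adjusted p = 0.337 by edgeR). Ifih1 averaged 49.6 ± 12.5 CPM over CR tumors and 41 ± 14.6 CPM over PR tumors, and Isg15 averaged 29.6 ± 8.78 CPM over CR tumors and 27.2 ± 10.8 CPM over PR tumors. Ifit1bl1 (0.35, adjusted p = 0.366), Parp10 (0.17) and Isg20 (0.19) came next, and the 4 genes below 0 were Mx2 (-0.04), Cmpk2 (-0.04), Oasl1 (-0.03) and Eif2ak2 (-0.01). The ranges of CR and PR overlapped for Lgals3bp, Ifih1 and Isg15. Leukocyte markers summed to 1253 ± 201 CPM in CR and 1044 ± 183 CPM in PR tumors and T cell markers to 109.5 ± 30.5 CPM in CR and 72.1 ± 29.3 CPM in PR tumors, and 0 of 10 and 0 of 8 of them were called, with 9 and 8 at an unadjusted p under 0.05 by edgeR. The part of these cells in the values of the 40 genes was not tested. With skin and muscle scores as covariates, the median of the 40 genes was 0.02 and 26 were above 0. It was 0.08 without CR replicate 11 and 0.26 without PR replicate 12.

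On Day+3, 0 of 40 were called between CR and PR and 0% of 11839 genes tested were (edgeR), and DESeq2 and voom called 0 of the 40. At an unadjusted p under 0.05 were 0 of the 40 and 256 of the 11839 genes tested (edgeR). The median of the 40 was 0.00, 21 were above 0, and the values lay between -0.13 (Mx2) and 0.14 (Ifit1bl1). On Day+7, 0 of 40 and 0% of 11727 genes tested were called (edgeR). At an unadjusted p under 0.05 were 3 of the 40, namely Ifit1bl1, Irf9 and Cmpk2, and 333 of the 11727 genes tested (edgeR). DESeq2 called 1 of the 40 and voom 0, and the shares of all genes that these tools called are not given here. All 40 log2 fold changes were above 0, with a median of 0.27 (1.21-fold). Over all genes tested the median was 0.00, and 6003 of 11727 were above 0. By tumor, the mean log2 CPM of the 40 genes was 7.448, 7.213, 8.074, 7.945 and 7.538 in CR. It was 7.153, 7.63, 7.454, 7.346 and 7.358 in PR, so only CR replicates 3 and 4 stood above the PR range. The 40 genes move together between tumors, so their shared direction is not 40 separate results. The median log2 fold change was 0.17 without CR replicate 3, and 0.15 with 36 above 0 without the tumors high in Krt5.

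Ifit1bl1, a low-expressed Ifit1 relative with 39 to 122 counts per Day+7 tumor, was at 6.46, 4.78, 8.5, 6.79 and 5.14 CPM in CR and 2.95, 2.72, 3.9, 3.92 and 3.6 CPM in PR tumors. The 5 CR tumors were all above the 5 PR tumors (log2 fold change 0.89, SE 0.19, adjusted p = 0.967 by edgeR), and DESeq2 called this gene alone among the 40 (adjusted p = 0.0609). How many of all genes tested kept CR and PR apart in this way was not counted, so the separation has no share to be set against. Ifit1bl1 shares 19.3% of its 31-base words with other genes. Cmpk2, a mitochondrial nucleotide kinase, was at 28.3, 23, 68.5, 77.3 and 33.3 CPM in CR and 24.7, 38, 26.5, 27.4 and 22.3 CPM in PR tumors. Only CR replicates 3 and 4 stood above the PR range. The same pair was highest for Isg15, Ifit2 and Mx1. Irf9 was at 203, 207, 221, 232 and 199 CPM in CR and 191, 203, 186, 198 and 186 CPM in PR tumors, and the groups overlapped.

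By role, the median log2 fold change of CR over PR on Day+7 was 0.49 for the MX genes, 0.47 for the IFIT genes (Ifit2 0.49, Ifit1 0.46, Ifit3 0.38), 0.31 for the OAS family and 0.27 for the helicases. It was 0.18 for the PARP and DTX3L group and 0.14 for the other effectors, where Lgals3bp was lowest at 0.02. Isg15 was at 0.55. None of these values passed the test. On the same day the leukocyte markers summed to 5593 ± 1030 CPM over CR tumors and 6224 ± 555 CPM over PR tumors (SD, n = 5 each), and the markers of plasmacytoid dendritic cells to 106.2 CPM over both. The medians of the leukocyte sum were 6020 CPM over CR tumors and 6170 CPM over PR tumors, and CR Day+7 replicate 4 was lowest at 3780 CPM. The part of leukocytes in the values of the 40 genes was not tested.

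**Figure D5:**
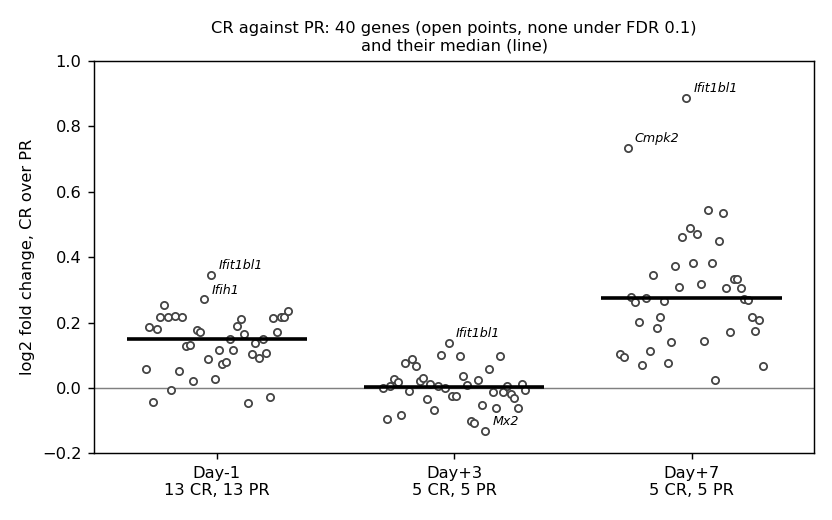
Log2 fold change of CR over PR (y axis) for each of the 40 genes within each time point (x axis, with the number of tumors); points are genes and the line is their median. All points are open because 0 passed an FDR of 0.1. The medians are 0.15, 0.00 and 0.27, and Ifit1bl1 (0.89) and Cmpk2 (0.73) stand highest on Day+7.

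Whether the difference of CR and PR changed after CY was tested in the model of all 46 tumors. For Day+3 against Day-1, 0 of 40 and 0% of all genes tested were called, and DESeq2 and voom also called 0 of the 40. At an unadjusted p under 0.05 were 0 of the 40 and 461 of 13194 genes tested (edgeR). The median change of the 40 was -0.15, with 4 above 0. For Day+7 against Day-1, 0 of 40 were called and 0.00758% of all genes tested were. By edgeR 1 of the 40, Cmpk2 (0.77, adjusted p = 0.381), and 1521 of 13194 genes tested were at an unadjusted p under 0.05. DESeq2 and voom called 0 of the 40. The median was 0.11 with 29 above 0, but it was -0.02 with voom, -0.02 without the tumors high in Krt5, and 0.02 to 0.21 with 1 tumor left out.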

How the data were processed

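RNA of 46 AB1-HA tumors was sequenced in bulk by the authors. The deposited table holds counts per gene, not normalized, and the submitters' processing notes name kallisto and GRCm38.p6. The kallisto version, the way transcripts were summed to genes and the use of strand are not given in the sources used here. The labels give 50 base reads, which differs from the methods of the study. The table ended at an incomplete entry for Pax7, which was left out, and genes after it, among them Rsad2 and Usp18, were not analysed here. Library sizes are therefore sums over the genes present.

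Counts were scaled by TMM, filtered with filterByExpr, and compared by the quasi-likelihood test of edgeR (edgeR 4.0.16, limma 3.58.1, R 4.3.3) and Benjamini-Hochberg adjustment over all genes tested, at the FDR of 0.1 that the study used. CR and PR were compared within each day, and days were compared in a model of all 46 tumors and 6 groups, with CR and PR weighted equally. A fold change is given on the log2 scale. DESeq2 1.42.0, limma-voom, other library sizes, filters, covariates and left-out tumors were alternatives, and offsets for length and GC content were added after seeing the data. The 40 genes and all lists were chosen with earlier results of these data known. Any of the 40 could be named; values were given for the 5 lowest p-values per direction and comparison and for representatives of each role, and, outside the 40, for fixed signalling genes and up to 3 genes with the smallest p of each list. Genes that share 31-base words with a relative have uncertain counts. Promoter windows came from RefSeq, and none was held for 10 of the 40 genes. No 2 libraries were copies: of 1035 pairs 0 were identical.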

Additional observations from a re-analysis of the deposited data

Results flagged for a closer look

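Of 164 checks for a tumor far from the others of its group (4 groups of 5 tumors, the 40 genes and their mean level), 7 stood out by Dixon's test. Chance alone marks about 1 in 20 groups, and 7 of 164 is no more than that. The checks share the same tumors, so they are not independent. All 7 were on Day+3. CR Day+3 replicate 1 was lowest for Ifit3 (70.9 CPM, next 89.5 CPM), Ifih1 (32.5 CPM, next 43.3 CPM) and Isg20 (15.6 CPM, next 18.9 CPM). PR Day+3 replicate 3 was highest for Ifit3 (101 CPM, next 90 CPM) and Mx2 (26.9 CPM, next 22.9 CPM). PR Day+3 replicate 2 was lowest for Oas1a (72.1 CPM, next 91.8 CPM) and Oasl2 (186 CPM, next 230 CPM).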

How the results depend on the processing

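Most results were the same by the rule used. A single gene was the same if it kept its sign and its call, and a count if it stayed within a fixed fold limit. A median was the same if it moved by less than 0.276, the spread of the mean level within groups. The medians of CR against PR were all smaller than that, so they could change sign and still count as the same. Over the named genes and summary values, 3998 were the same and 4 lost a call with 1 tumor left out, and 1237 were the same under the other settings. Among all 40 genes on Day+3, Epsti1 lost its call in 16 of 46 omissions, Ifi44 and Irf9 in 2 each, and Ifit1 gained one in 13 and Ddx58 in 3. The count of genes higher on Day+3 was 19 to 22 with 1 tumor left out, that of lower genes 4 to 6, and their median 0.21 to 0.29. On Day+7 against Day-1 it was 40 throughout (median 1.69 to 1.78), and against Day+3 39 higher and 1 lower (median 1.34 to 1.44). For CR against PR the median was 0.08 to 0.26 on Day-1, -0.05 to 0.06 on Day+3 and 0.17 to 0.37 on Day+7, and the change of that difference on Day+7 was 0.02 to 0.21. Genes lower on Day+3 numbered 2 without the tumors high in Krt5 and 3 with a length offset or with a length and GC offset. The shares of all genes in these settings are not given here. Helz2 on Day+3 reversed to 0.0041 with the length offset, and Ifih1 between CR and PR on Day+3 to -0.0018 with skin and muscle covariates. Genes without a call on Day+3 against Day-1 did not enter this check. Among them, Adar went from a negative change to a call as higher with the length offset. Ifih1, Eif2ak2 and Ifi203 did so with the length and GC offset. The cause of these reversals was not tested. DESeq2 called 1 of the 40 genes higher in CR on Day+7, and its share over all genes is not given here. With table sums as library sizes the median for Day+7 against Day+3 was 1.12 and that of all genes -0.26, against 0.02 with TMM, and 39 genes were called on Day+7 against Day-1, without Helz2. The interferon ligand genes, whose highest count in a tumor was 8, were below the filter of the test. No paired analysis was possible because no mouse gave more than 1 sequenced tumor and the numbers in the titles are not shared between CR and PR.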
